A study of Mus musculus with 12 samples.

Results

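The proximal chromosome 5 gene block is a run of 39 neighbouring genes of the mouse genome, from Cdk6 to Gsap, out of the 21743 genes in the deposited table. The members are listed genes near the start of chromosome 5 (GRCm38), with the ABC transporter genes and Cd36 of the same interval left out, and all 39 were found in the table. They were selected on their level in 1 of the 2 tumors (MT2), where several genes of this stretch were high, so every comparison of MT2 with MG2 or MT1 is a description of the members and carries no test. By the annotation, 4 of the listed members (Tmem60, Rsbn1l, Ptpn12 and Gsap) start past the upper bound given with the list, and they were kept because they are listed. The block spans chr5:3341485-21315132.

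Drop-seq, a droplet method that tags each captured RNA molecule with a unique molecular identifier (UMI) and reads its 3′ end, was applied to 2 mice of mixed C57BL/6 and 129/Sv strain. Both mice were MMTV-Cre; Brca1 flox/flox, so both glands and both tumors share this genotype. MMTV-Cre is active mainly in mammary epithelium, and other cells of the tissue may keep an intact Brca1. Mouse 1 gave gland cells (MG1, 2 libraries) and tumor cells (MT1, 5 libraries), and mouse 2 gave gland cells (MG2, 2 libraries) and tumor cells (MT2, 3 libraries), with no further treatment stated. Blood and endothelial cells were depleted from each suspension to enrich epithelial cells, and the labels give no age for these mice. Each group is 1 tissue of 1 mouse, so p-values cover the spread between libraries and not between animals.

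The members share a chromosome and no single pathway. Cdk6 pairs with D-type cyclins to phosphorylate the retinoblastoma protein early in the cell cycle, and Dbf4 activates the kinase Cdc7 at replication origins. Others encode a Wnt receptor (Fzd1), membrane proteins of the STEAP family (Steap1, Steap2 and Steap4) and secreted guidance cues (class 3 semaphorins). Hgf encodes the growth factor of the Met receptor and is known in the mammary gland as a product of the stroma.

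The table held 818 cells of MG1, 2335 of MG2, 7690 of MT1 and 10314 of MT2, with 693333 to 14841414 UMIs per library. MG1 replicate 2 was the smallest library, with 105 cells. Libraries shared 0 to 7 cell barcodes by pair. Clustering without the genes of the block put 9771 MT2 cells into 2 clusters, in which 0 of 7 epithelial markers (such as Epcam, Krt8 and Cdh1) were higher than in other cells, with median log2 fold changes of -4.02 and -3.88. Gland cells fell mainly into hormone-sensing-like, secretory-like and basal-like epithelial clusters, so MT2 against MG2 compares cells with unlike marker levels. Unless stated otherwise, values are CPM (each UMI count set against the library total) scaled by the trimmed mean of M values (TMM), summed over the 20037 cells outside fibroblast-like, endothelial-like and immune-like (stromal) clusters.

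Promoter windows (250 bases before to 50 after a start, RefSeq, GRCm38.p6) were found for 37 of the 39 members. Of these, 32 held 10 or more CG dinucleotides, against 45.8% of all genes with a window (27025 genes, the entry with the most CG taken for each). Dbf4 and Slc25a40 start 134 bases apart on opposite strands, so 1 stretch of 221 bases is promoter window to both (chr5:8422667-8422887, plus strand), and both were high in MT2. This stretch is shown first, with its 33 CG in capitals. Those of Steap1 (chr5:5749268-5749567, minus strand) and Fzd1 (chr5:4758167-4758466, minus strand) are given because these members had among the highest ratios of MT2 to other groups. The window of Hgf (chr5:16553245-16553544, plus strand, 7 CG) is given as one of the 5 with fewer than 10 CG, and that of Cacna2d1 (chr5:15934441-15934740, plus strand, 42 CG) as a CG-rich window of a gene that was low in MT2.
Dbf4 and Slc25a40: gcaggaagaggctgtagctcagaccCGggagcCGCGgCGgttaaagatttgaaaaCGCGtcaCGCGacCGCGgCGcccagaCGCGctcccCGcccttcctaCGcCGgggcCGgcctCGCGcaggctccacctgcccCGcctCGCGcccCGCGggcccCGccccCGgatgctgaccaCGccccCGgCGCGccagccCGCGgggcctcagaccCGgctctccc
Steap1: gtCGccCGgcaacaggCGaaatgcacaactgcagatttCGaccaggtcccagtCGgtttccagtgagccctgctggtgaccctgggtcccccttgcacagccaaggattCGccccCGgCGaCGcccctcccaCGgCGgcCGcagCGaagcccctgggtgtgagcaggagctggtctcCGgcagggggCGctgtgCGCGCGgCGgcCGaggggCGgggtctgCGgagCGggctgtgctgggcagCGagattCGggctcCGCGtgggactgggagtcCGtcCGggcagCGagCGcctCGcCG
Fzd1: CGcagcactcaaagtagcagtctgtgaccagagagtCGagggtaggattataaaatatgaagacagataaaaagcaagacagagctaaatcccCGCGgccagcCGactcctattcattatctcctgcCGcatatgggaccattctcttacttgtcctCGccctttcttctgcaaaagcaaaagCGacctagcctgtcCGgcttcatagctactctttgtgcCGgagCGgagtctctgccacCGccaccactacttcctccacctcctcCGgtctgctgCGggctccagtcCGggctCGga
Hgf: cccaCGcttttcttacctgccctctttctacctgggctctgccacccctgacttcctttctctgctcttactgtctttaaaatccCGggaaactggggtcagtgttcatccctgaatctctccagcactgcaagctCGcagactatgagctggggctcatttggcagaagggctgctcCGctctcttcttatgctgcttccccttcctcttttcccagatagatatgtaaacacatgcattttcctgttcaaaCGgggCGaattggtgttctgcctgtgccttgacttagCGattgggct
Cacna2d1: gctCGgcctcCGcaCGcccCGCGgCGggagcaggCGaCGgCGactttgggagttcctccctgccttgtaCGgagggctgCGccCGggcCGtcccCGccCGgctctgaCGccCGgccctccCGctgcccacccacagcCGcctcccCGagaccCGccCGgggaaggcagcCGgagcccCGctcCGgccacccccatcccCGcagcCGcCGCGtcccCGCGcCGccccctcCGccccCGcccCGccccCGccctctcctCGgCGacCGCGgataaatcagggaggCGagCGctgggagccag

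On both strands, GGGCGG stood in the windows of 22 members (37.3% of all genes), CCAAT in 13 (37.4%) and TATAAA in 3 (13.7%). These letter matches describe the windows only, and CG-rich windows belonged to members that were high in MT2 (Steap1, Dbf4) and to members that were low there (Cacna2d1). GGGCGG overlaps CG by its own letters.

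Summed over all members, the block took 2582 ± 72.5 CPM without TMM scaling in MT2 (SD, n = 3 libraries). The share was 1122 ± 22.6 in MT1 (n = 5), 1535 ± 95.5 in MG2 (n = 2) and 1473 ± 65.7 in MG1 (n = 2). The MT2 libraries stood apart from the 9 others, which is the pattern the members were selected on. The excess lay in the members from Cdk6 to Dmtf1, a division at the 3.22 Mb gap after Dmtf1 that was chosen after the values were seen. These 25 members held 2289 ± 64.6 unscaled CPM in MT2 against 846.3 ± 12.8 in MT1 and 1239 ± 56.6 in MG2. The 14 members from Sema3d to Gsap held 292.8 ± 7.74 unscaled CPM in MT2, 276.2 ± 19.0 in MT1 and 296.4 ± 38.96 in MG2, values that overlapped between groups.

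**Figure D1:**
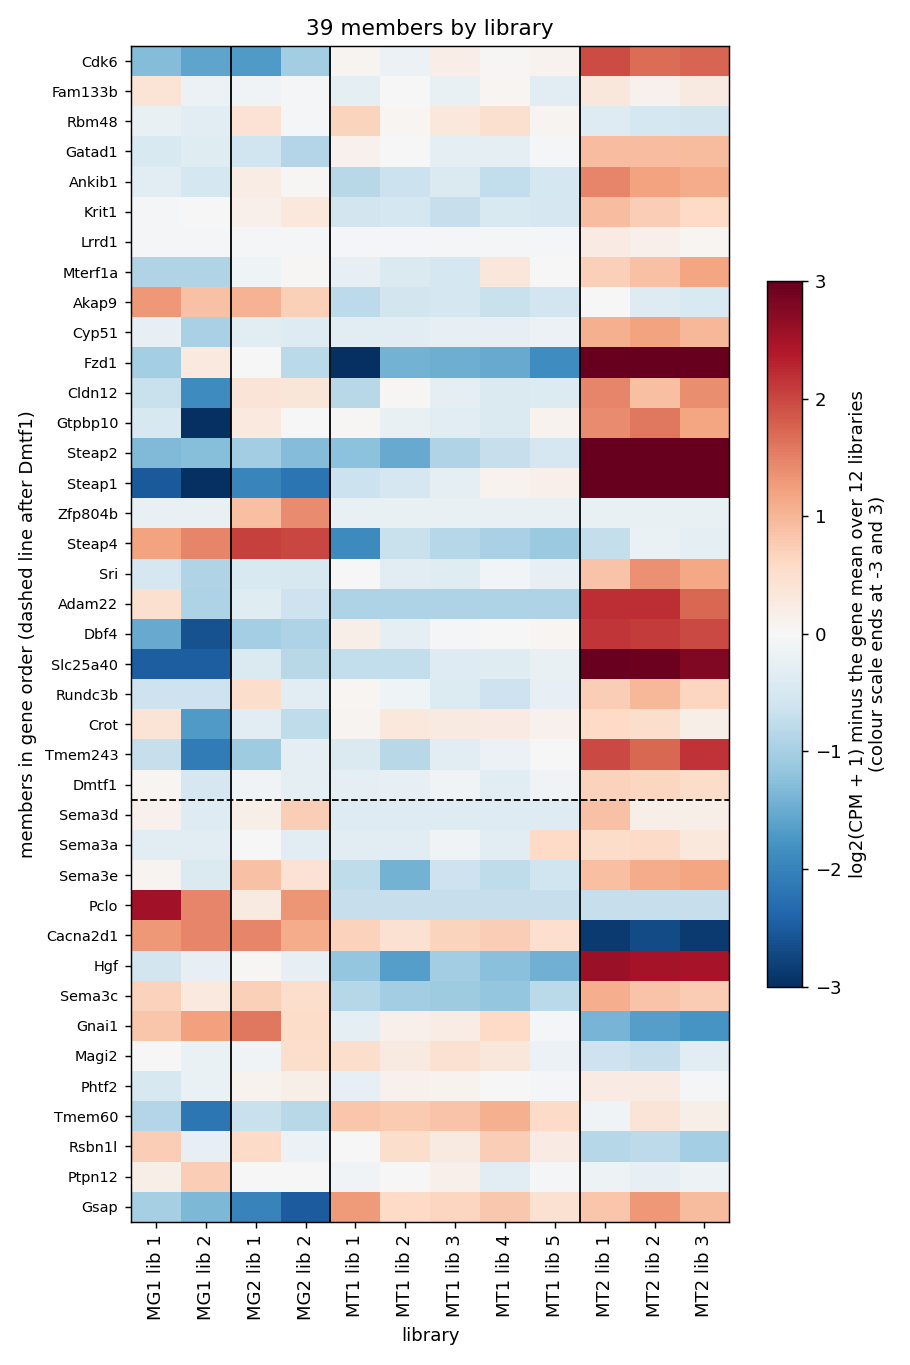
Each row is a member in gene order and each column 1 of the 12 libraries (lib, its number in the group), coloured by log2(CPM + 1) minus the mean of that gene over the libraries. Most rows from Cdk6 to Dmtf1 are red in the 3 MT2 libraries, while Akap9, Steap4 and Rbm48 in that stretch, and Cacna2d1, Gnai1 and Rsbn1l below the dashed line, are not.

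In 19 of the 25 members from Cdk6 to Dmtf1, every MT2 library was above every other library, and in 1 (Rbm48) every MT2 library was below. In the 14 others, 3 were above (Sema3e, Hgf and Sema3c), 4 were below and 7 overlapped. The share of all genes below every other library was not taken, so nothing is read from the counts below. Among the 19 from Cdk6 to Dmtf1 were Lrrd1, Mterf1a and Rundc3b, which did not pass the count filter. Of the 33 members that passed the count filter, 19 were above every other library, where 20.0% of the 13654 genes tested were. A log2 fold change of 1 or more in MT2 over MG2 was reached by 16 of the 33 members tested (22.6% of all genes tested), 14 of them from Cdk6 to Dmtf1. Over MT1 it was reached by 18 (19.0% of all genes), 15 of them from Cdk6 to Dmtf1. The filter can pass a gene through its MT2 counts alone, so these member counts describe the choice and support nothing. The median log2 fold change of the members was 0.96 over MG2 and 1.32 over MT1, beside -0.05 and -0.01 for all genes tested. Both comparisons use the same MT2 libraries.

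Along the chromosome, high ratios lay mainly in the first stretch. The table held no protein-coding gene with 10 or more UMIs before Cdk6, so the near edge has no neighbour to set beside it. From Cdk6 to Dmtf1 the median log2 ratio of pooled CPM (pseudocount 1 CPM, 24 members with 10 or more UMIs) was 1.20 to MG2 and 1.36 to MT1. From Sema3d to Gsap it was 0.00 and 0.07. Past Gsap, the next 10 genes had medians of -0.38 and -0.63, the 836 genes of chromosome 5 after the block 0.15 and -0.02, and all protein-coding genes with 10 or more UMIs 0.00 and -0.05. A log2 ratio of 1 or more to MG2 was found in 10.0% of the next 10 genes, 24.2% of the 836 and 19.3% of all protein-coding genes. The last member, Gsap, a gamma-secretase activating protein, had 3.27 to MG2 and 0.31 to MT1. The first 5 genes beyond it were Ccdc146 (-0.28 to MG2 and 0.59 to MT1), Fgl2 (-2.55 and -0.53), Fam185a (-0.47 and -0.74), Fbxl13 (0.33 and 0.12) and Lrrc17 (2.03 and 1.53, from 130 UMIs in all).

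High and low genes alternated within the first stretch. Rbm48 had -0.71 to MG2 and lies between the members Fam133b at 0.34 and Gatad1 at 1.67, and Akap9 had -1.15 beside Cyp51 at 1.46. Of 18 non-members inside the interval, 7 (38.9%) had a log2 ratio of 1 or more to MG2, beside 19.3% of all protein-coding genes. Among them, the ABC drug transporters Abcb1a and Abcb1b had 6.41 and 6.62 to MG2, and Abcb4 had 1.69, while Cd36, a fatty acid transporter that was not among the 7, had -4.39. Cfap69 had 5.92 to MG2. Cfap69 lies 589 bases downstream of Steap2 on the same strand, so reads past the end of Steap2 could be counted for it, which was not tested.

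**Figure D2:**
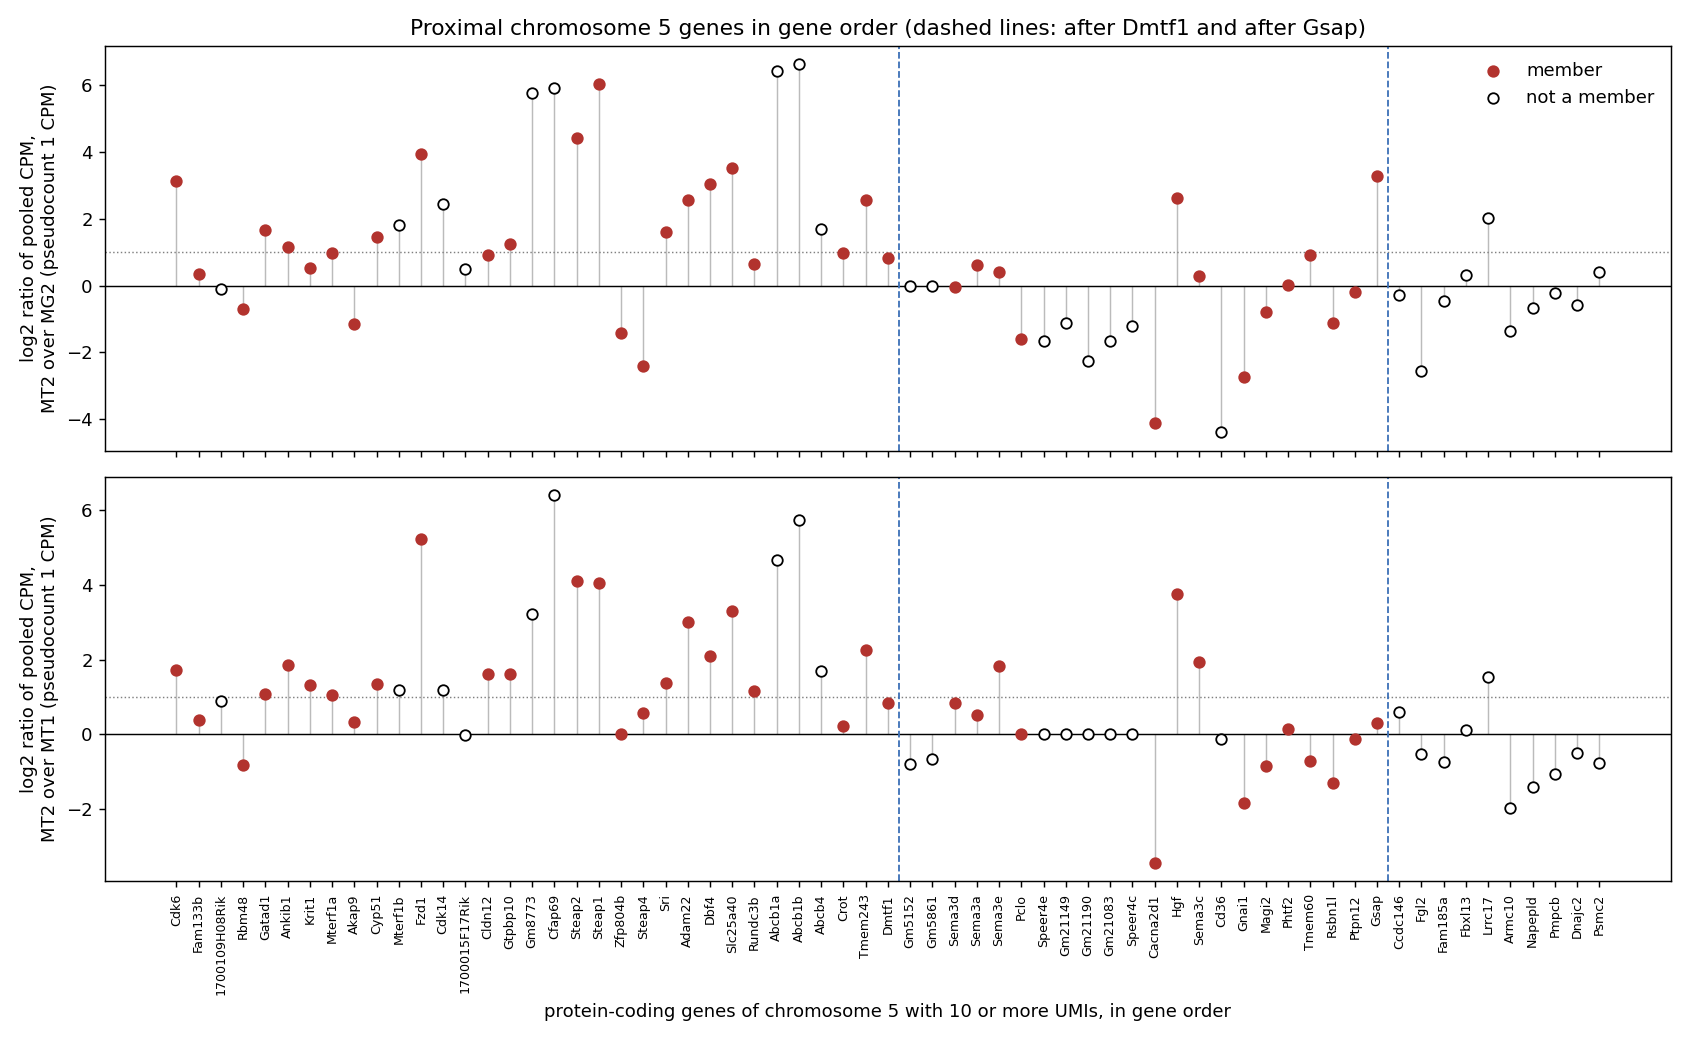
Points are the log2 ratios of pooled CPM (pseudocount 1 CPM) of MT2 to MG2 (top) and to MT1 (bottom) for members (filled) and other protein-coding genes of chromosome 5 (open) in gene order, with dashed lines after Dmtf1 and Gsap. High ratios cluster left of the first dashed line, up to 6.62 for Abcb1b over MG2, while points between the dashed lines lie on both sides of 0.

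The cell cycle members were high in MT2. Cdk6 (chr5:3341485-3531008, plus strand) stood at 213, 175 and 182 CPM in the MT2 libraries, at 47.5 to 62.4 in MT1 (median 56.9), at 16.1 and 25.6 in MG2 and at 21.2 and 17.3 in MG1. The MT2 values lay above all others and those of MT1 above both glands, and the log2 fold change of MT2 was 3.19 ± 0.21 (SE) over MG2 and 1.76 ± 0.14 over MT1. Dbf4 (chr5:8396973-8422716, minus strand) stood at 212, 206 and 189 CPM in MT2, at 38.4 to 53.4 in MT1, at 22.8 and 24.2 in MG2 and at 15.8 and 6.91 in MG1. Its order was the same as that of Cdk6, with 3.10 ± 0.19 over MG2 and 2.12 ± 0.13 over MT1. Dmtf1, a transcription factor that binds D-type cyclins, was at 92.4 ± 4.55 CPM in MT2 and close to 51 in the other groups (51.2 to 51.4), 0.85 ± 0.16 over MG2. Dmtf1 overlaps Tmem243 on the opposite strand over 42186 bases, and whether the counting used strand is not given in the sources used here.

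MG2 held 47 cells in tumor clusters, 44 and 3 of them in a pair of clusters made almost wholly of MT1 cells (1345 and 2469), while the 2 clusters of MT2 tumor cells held 0 MG2 cells. These 47 cells gave 22.7% of the MG2 UMIs of Cdk6, 19.2% of those of Dbf4 and 14.4% of those of Sema3c. Without them the MT2 over MG2 log2 fold changes were 3.48 ± 0.19 for Cdk6, 3.34 ± 0.19 for Dbf4 and 0.44 ± 0.17 for Sema3c.

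The STEAP family genes did not share 1 order of groups. Steap1 (chr5:5736317-5749326, minus strand) stood at 196, 274 and 230 CPM in MT2, at 8.80 to 16.02 in MT1, at 2.87 and 2.35 in MG2 and at 1.67 and 0.00 in MG1. Steap2 (chr5:5664829-5694578, minus strand) stood at 274, 270 and 240.3 CPM in MT2, at 8.63 to 18.4 in MT1, at 12.2 and 10.1 in MG2 and at 9.99 and 10.4 in MG1. For both, the MT2 libraries were far above every other library, by 6.47 ± 0.31 and 4.55 ± 0.24 over MG2 on the log2 scale. Steap4 lay the other way, at 5.31, 7.94 and 7.55 CPM in MT2, 1.76 to 5.49 in MT1 and 41.7 and 40.2 in MG2. Its MT2 libraries were below all gland libraries, and the lowest of them was under the highest MT1 library.

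Fzd1 (chr5:4753839-4758035, minus strand), a receptor for Wnt ligands, stood at 97.3, 88.5 and 99.2 CPM in MT2. It was at 0.00 to 1.96 CPM in MT1, 6.95 and 3.53 in MG2 and 2.91 and 8.64 in MG1, so no other library came near MT2 (5.92 ± 0.25 over MT1). Slc25a40, a carrier of the mitochondrial inner membrane whose promoter window is shared with Dbf4, stood at 42.2, 41.5 and 37.0 CPM in MT2 and at 3.79 or lower elsewhere. Adam22, a catalytically inactive ADAM protein, had 277 UMIs in MT2 and 0 in MT1, at least 45.0-fold higher in MT2 when 3 counts over MT1 are taken as the floor. Tmem243, a small transmembrane protein, was at 44.5 ± 6.85 CPM in MT2 and 6.62 ± 2.93 in MG2 (2.74 ± 0.27). Sri, the calcium-binding protein sorcin, was at 215.5 ± 38.8 CPM in MT2 and 84.1 ± 8.79 in MT1, its nearest group. Cldn12, a tight junction claudin, was at 23.6 ± 4.91 CPM in MT2 and 12.1 ± 0.16 in MG2, the nearest group.

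**Figure D3:**
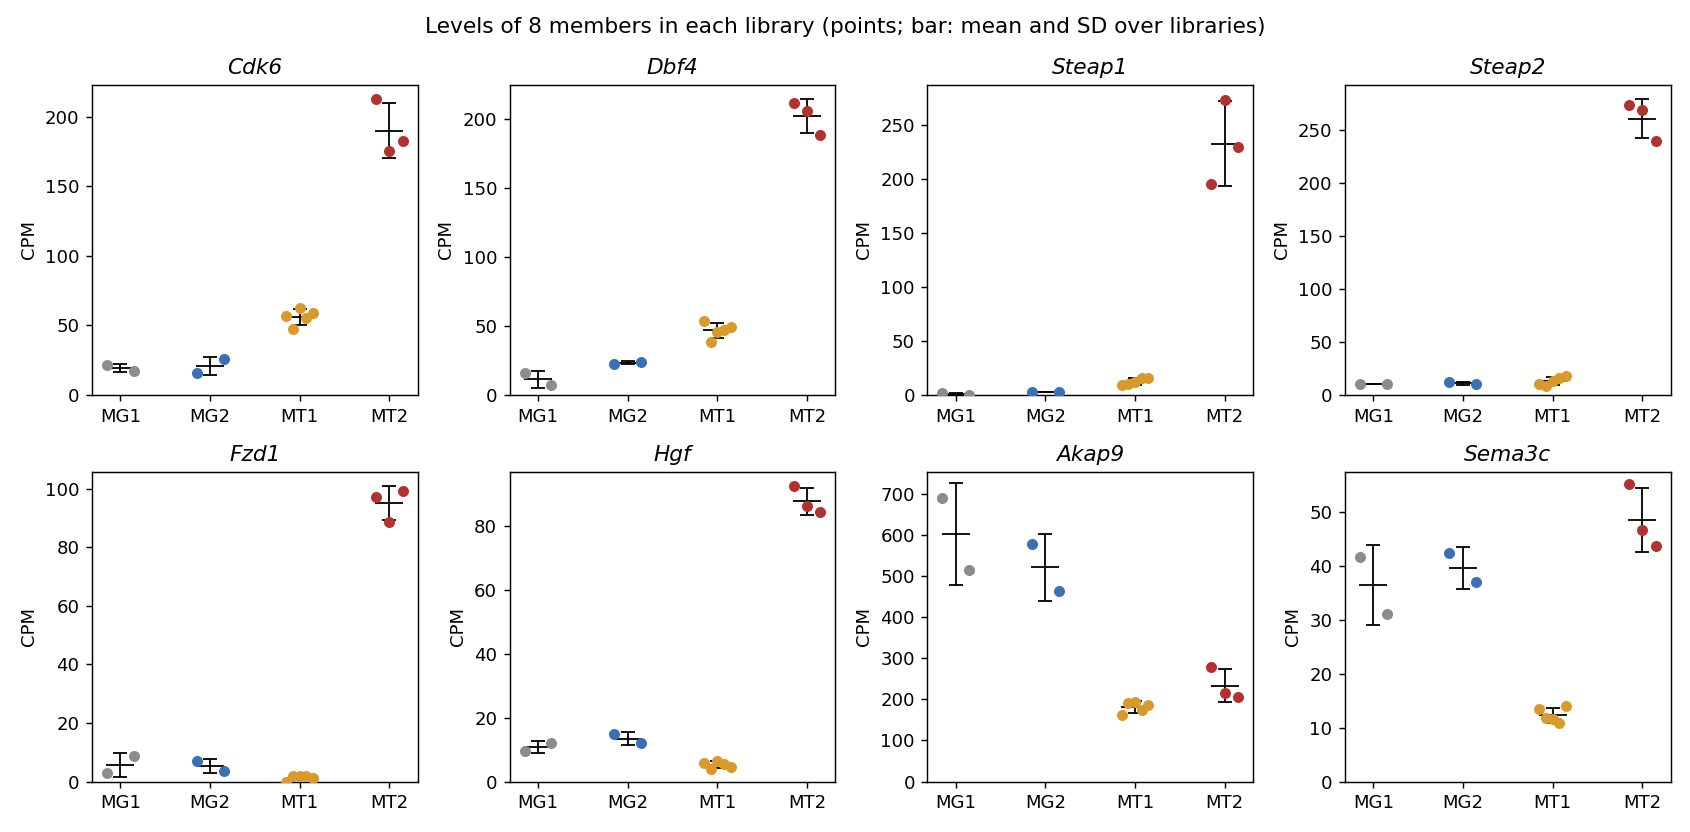
Points are CPM in each library of 8 members, with the mean and SD over the libraries of each group as bars, on axes that start at 0. MT2 is above every other library for Cdk6, Dbf4, Steap1, Steap2, Fzd1 and Hgf, while Akap9 is highest in the glands and Sema3c is lowest in MT1.

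Cyp51, the lanosterol demethylase of cholesterol synthesis, stood at 145, 159 and 137 CPM in MT2 and at 34.6 to 60.3 in the 9 other libraries, 1.48 ± 0.17 over MG2. The 3′ end of Cyp51 overlaps that of Akap9 over 166 bases, a gene with a different order of groups. Crot, a peroxisomal carnitine acyltransferase, was at 34.2 ± 5.14 CPM in MT2 and 28.9 ± 1.93 in MT1, groups whose libraries overlapped.

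Among scaffold and signalling members, Ankib1, a ubiquitin ligase, stood at 143, 118 and 110.5 CPM in MT2 and at 59.6 or lower elsewhere. Krit1, a component of the cerebral cavernous malformation complex at cell junctions, stood at 121, 105 and 96.7 CPM in MT2, 70.7 and 78.7 in MG2 and 38.6 to 46.1 in MT1. These 2 genes start 259 bases apart on opposite strands, and in both MT2 was highest, MG2 next in mean and MT1 lowest. Akap9, which anchors protein kinase A at the Golgi and centrosome, was highest in the glands, at 578 and 463 CPM in MG2 and 689 and 513 in MG1. It stood at 279, 215 and 205 CPM in MT2 and 161 to 194 in MT1, so both tumors were below both glands.

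Nuclear and mitochondrial members were split as well. Gatad1, a zinc finger protein of chromatin, stood at 123, 123 and 125 CPM in MT2 and at 34.5 to 70.4 elsewhere. Gtpbp10, a GTPase of mitochondrial ribosome assembly, was at 22.8 ± 3.36 CPM in MT2 and 9.02 ± 1.46 in MG2. Mterf1a, a mitochondrial transcription termination factor, had 102 UMIs in MT2 (2.60 ± 0.63 CPM) and up to 1.37 CPM in other libraries, but its near-identical neighbour Mterf1b makes the split of reads uncertain. Fam133b was at 167 ± 12.8 CPM in MT2 and 155 ± 43.0 in MG1, which overlapped. Rbm48, a protein of minor intron splicing, stood at 15.1, 13.5 and 13.3 CPM in MT2, below its range of 15.6 to 32.3 in the other libraries. Rundc3b had 66 UMIs in MT2 (1.68 ± 0.34 CPM), Lrrd1 had 6 and Zfp804b 0, which allows up to 0.0762 CPM.

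In the far stretch, Hgf and Gsap had log2 fold changes over 1 against MG2, and Hgf, Sema3c and Sema3e against MT1. Hgf (chr5:16553495-16620152, plus strand) stood at 92.7, 86.4 and 84.4 CPM in MT2, 14.9 and 11.98 in MG2, 9.57 and 12.1 in MG1 and 3.92 to 6.56 in MT1. The log2 fold change was 2.71 ± 0.18 over MG2 and 4.01 ± 0.15 over MT1. Gsap stood at 11.4, 15.96 and 12.3 CPM in MT2 and at 8.45 to 15.8 in MT1, ranges that overlapped, while both glands were at 2.50 or lower.

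The semaphorins, secreted guidance cues, were mostly low in counts. Sema3c stood at 55.2, 46.6 and 43.6 CPM in MT2, 42.4 and 36.9 in MG2, 41.6 and 31.1 in MG1 and 10.8 to 14.0 in MT1. MT2 was just above the glands and well above MT1 (0.29 ± 0.16 and 2.00 ± 0.14 on the log2 scale). Sema3e was at 6.80 ± 0.81 CPM in MT2 and 4.87 ± 1.24 in MG2, and Sema3d (31 UMIs) and Sema3a (29 UMIs) were under 2 CPM in every MT2 library. These sums leave stromal clusters out, and in fibroblast-like cells of MT2 Sema3a was at 132 unscaled CPM and Sema3d at 17.4, against 0.708 and 0.757 in the tumor clusters.

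Cacna2d1, a calcium channel subunit, stood at 0.0737, 0.229 and 0.0786 CPM in MT2, 9.80 to 12.2 in MT1 and 15.98 to 20.83 in the glands, while MT2 fibroblast-like cells had it at 63.7 unscaled CPM. Gnai1, an inhibitory G protein subunit, had 5 UMIs in MT2 and stood at 1.76 to 9.10 CPM in the other libraries. Pclo, a presynaptic scaffold, had 0 UMIs in MT2 and in MT1 and 17 in MG2, at least 26.5-fold higher in MG2. Magi2, a scaffold protein, was at 1.15 ± 0.31 CPM in MT2 and 2.72 ± 1.14 in MG2.

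At the far end of the block, Phtf2 was at 13.6 ± 1.64 CPM in MT2 and 13.3 ± 0.49 in MG2, and Ptpn12, a tyrosine phosphatase, was at 58.2 ± 2.59 and 65.8 ± 0.29. Rsbn1l stood at 45.2, 47.4 and 40.1 CPM in MT2, below its range of 69.1 to 139 in the other libraries. Tmem60, which starts 67 bases from Phtf2, was at 30.2 ± 5.27 CPM in MT2, between MG2 at 15.6 ± 1.38 and MT1 at 48.7 ± 5.91.

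Whether the block differs in the other mouse is a contrast that leaves MT2 out, although MT2 libraries entered the shared fit and the count filter. In MT1 against MG1, 7 members rose and 9 fell of 33 tested (edgeR quasi-likelihood test, adjusted p under 0.05), where 59.3% of all genes tested passed. Adam22, with 4 UMIs in MG1 and 0 in MT1, passed the count filter only through its MT2 libraries, so its fall is given without weight, and 8 members fell among the other 32. The 2 groups also held unlike cells, as MG1 had 270, 254 and 129 cells in the clusters with hormone-sensing, secretory and basal markers that held most gland cells, where MT1 had 69, 25 and 3, and the 3 clusters with 3547, 2469 and 1345 MT1 cells held 14 MG1 cells. The part of this mix in the calls was not tested. The members that rose were Cdk6 (log2 fold change 1.48 ± 0.23, adjusted p = 3.8e-05), Dbf4 (1.78 ± 0.24, adjusted p = 7.37e-06), Steap1 (3.24 ± 0.55, adjusted p = 8.01e-05), Tmem60 (2.03 ± 0.28, adjusted p = 8.53e-06), Gsap (2.17 ± 0.48, adjusted p = 0.00083), Rbm48 (0.60 ± 0.25, adjusted p = 0.0486) and Slc25a40. Steap1 had 4 UMIs in MG1, all in replicate 1, so its fold change rests on few counts. Slc25a40 had 61 UMIs in MT1 and 0 in MG1, at least 3.16-fold higher in MT1 (adjusted p = 0.000408). The members that fell were Akap9 (-1.73 ± 0.16, adjusted p = 8.39e-08), Steap4 (-2.52 ± 0.29, adjusted p = 1.14e-06), Sema3c (-1.66 ± 0.20, adjusted p = 1.98e-06), Hgf (-0.90 ± 0.29, adjusted p = 0.0128), Cacna2d1 (-0.77 ± 0.25, adjusted p = 0.0134), Krit1 (-0.52 ± 0.16, adjusted p = 0.0101), Ptpn12 (-0.49 ± 0.17, adjusted p = 0.0233), Pclo and Adam22. Pclo had 22 UMIs in MG1 and 0 in MT1, at least 47.2-fold higher in MG1.

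In 6 of the 33 tested members, the tumor libraries lay apart from the gland libraries in opposite directions in the 2 mice, as did 10.7% of all genes tested, and nothing is read from this count because MT2 selected the members. Median log2 fold change of the members in the MT1 comparison was 0.18, beside 0.11 for all genes tested. Fzd1 and Steap2, both high in MT2, gave -1.41 ± 0.60 (adjusted p = 0.0532) and 0.46 ± 0.32 (adjusted p = 0.221). The Adam22 call rests on 4 UMIs in MG1 replicate 1, and without that library its value was 0.00. Without MG1 replicate 1, Slc25a40 (adjusted p = 0.0943), Krit1 (0.165), Cacna2d1 (0.164), Hgf (0.175) and Rbm48 (0.164) also no longer passed. Without MG1 replicate 2, the adjusted p was 0.306 for Ptpn12, 0.0506 for Hgf and 0.0886 for Rbm48. Rbm48 also failed without MT1 replicate 1, 3 or 4 or any MT2 library, with adjusted p of 0.0567 to 0.0848, and by DESeq2 (0.152) or with RLE size factors (0.113). Ptpn12 also failed with no count filter (0.0841).

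Between the glands, 1 member (Slc25a40) rose in MG2 over MG1 and 0 fell, of 33 tested by edgeR, where 5.36% of all genes passed. Slc25a40 had 22 UMIs in MG2 and 0 in MG1, at least 2.59-fold higher in MG2 (adjusted p = 0.0156). After adjustment, DESeq2 called 0 members in either direction. Cdk6 had 0.05 ± 0.27 (adjusted p = 0.979) and Dbf4 0.79 ± 0.27 (adjusted p = 0.103). Without MG1 replicate 1 or MG2 replicate 1, the adjusted p of Slc25a40 was 0.246 and 0.0786.

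The MT2 tumor clusters were then divided by proliferation genes, a contrast that the choice of members did not use. Cells with 2 or more UMIs over 18 proliferation genes, after thinning each cell to 500 UMIs, were taken as cycling, and they made up 23.3, 31.0 and 20.0% of the cells of the 3 libraries. With the library as block, 7 members rose and 5 fell in cycling cells of 31 tested (edgeR quasi-likelihood test, adjusted p under 0.05), where 25.5% of all genes passed. The median log2 fold change was -0.02 for the members and -0.02 for all genes tested.

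Dbf4 changed most. It stood at 340.0, 300.4 and 322 CPM in cycling cells and at 146.5, 146 and 141 in the other cells of the same libraries, a log2 fold change of 1.15 ± 0.05 (adjusted p = 1.41e-14) that was higher in 3 of 3 libraries. Gtpbp10 rose by 0.70 ± 0.11 (adjusted p = 4.08e-05), Rbm48 by 0.56 ± 0.14 (adjusted p = 0.00503) and Steap1 by 0.33 ± 0.04 (adjusted p = 2.5e-06), each in 3 of 3 libraries. Smaller rises passed for Cyp51 (0.19 ± 0.05), Steap2 (0.16 ± 0.04) and Gatad1 (0.16 ± 0.05).

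Fzd1 fell by 0.42 in cycling cells (SE 0.07, adjusted p = 0.00011), Hgf by 0.35 (SE 0.07, adjusted p = 0.00042), Akap9 by 0.26 (SE 0.05, adjusted p = 0.000143), Steap4 by 0.63 (SE 0.21, adjusted p = 0.0336) and Sri by 0.12 (SE 0.04, adjusted p = 0.0491), each lower in 3 of 3 libraries. Cdk6 did not pass, with -0.08 ± 0.05 (adjusted p = 0.257), nor did Slc25a40, with -0.08 ± 0.09 (adjusted p = 0.57), although its promoter window is shared with Dbf4. Of 9 alternatives, 7 lost the call of Sri, 6 that of Gatad1, 5 that of Steap4 and 4 that of Cyp51. Without MT2 replicate 1, the adjusted p was 0.295 for Gatad1, 0.147 for Cyp51, 0.155 for Steap4 and 0.213 for Sri. Without MT2 replicate 3 it was 0.129, 0.128, 0.179 and 0.237 for the same genes and 0.0978 for Steap2. By DESeq2, Rbm48, Gatad1, Cyp51, Steap2, Steap4 and Sri did not pass, with adjusted p of 0.16 to 0.522. Dbf4, Gtpbp10 and Fzd1 kept their direction and call in all 9 alternatives of this comparison, and without the library block they were the only members that passed.

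**Figure D4:**
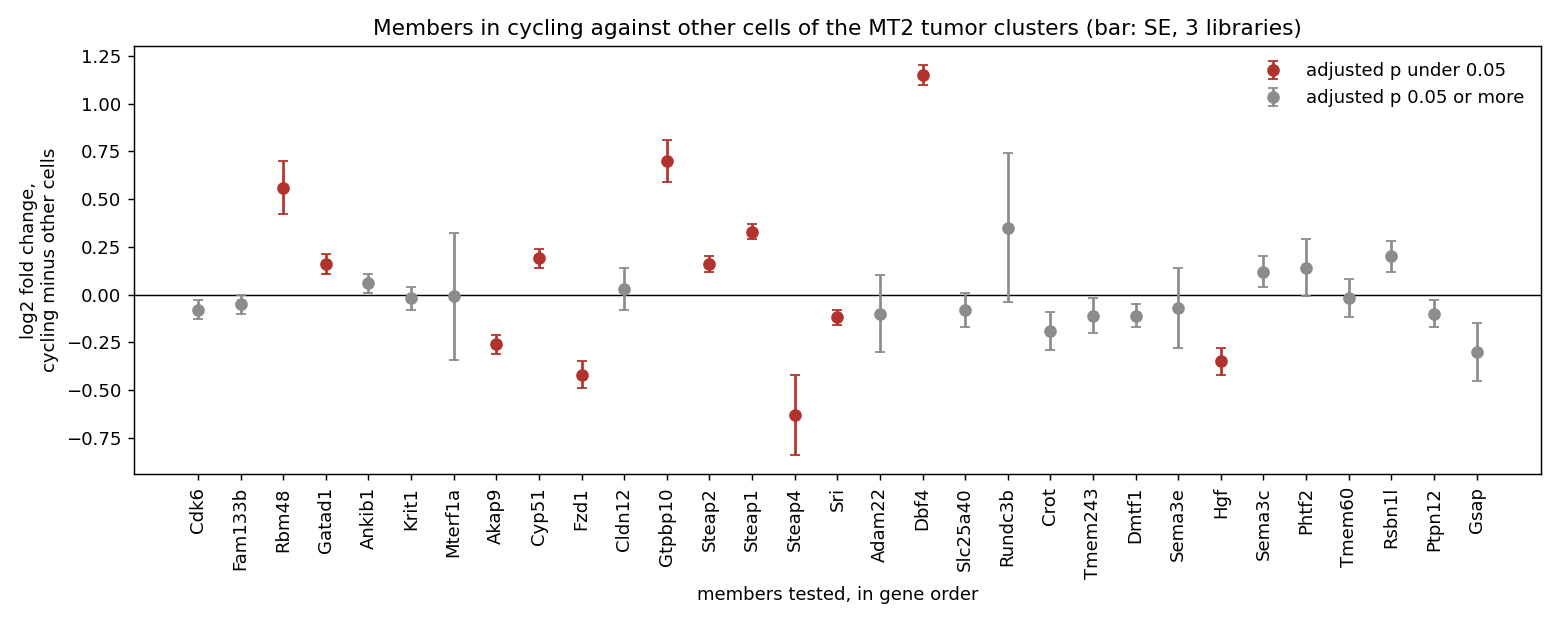
Points are log2 fold changes of cycling minus other cells of the MT2 tumor clusters for the 31 members tested, in gene order, with SE bars and red for an adjusted p under 0.05. Dbf4 stands alone at 1.15, and most members lie within 0.35 of 0.

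After thinning each cell to 800 UMIs, a cell of the MT2 tumor clusters held 2.05 member UMIs on average, with a variance 1.09 times the mean. Of these cells, 14.0% held 0 member UMIs, where a Poisson distribution of the same mean has 12.9%. The sum of the first 20 members and that of the other 19 had a Pearson r of 0.016 over 9771 cells (Spearman 0.020), and 0.022 over MT1 cells. The proliferation list divided into 2 groups of genes, not matched to the members in UMIs, had 0.523 over the same MT2 cells. Over 496 pairs of members, r ran from -0.025 to 0.038. Cells of a library share their library, so these values are a description. The part of sparse counts in the low r was not tested.

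The member closest to the sum of the others was Steap2, at 0.041. Among 1285 genes outside the interval seen in 10% or more of the cells, the 10 with the highest r with the summed members were Cenpe (0.058), Tpx2, Cenpf, Mki67, Smc4, Top2a, Anln, Hmgb1, Baz1b and Tra2a (0.033). Dbf4 is in the sum. Met, the receptor of Hgf, had 0.001.

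**Figure D5:**
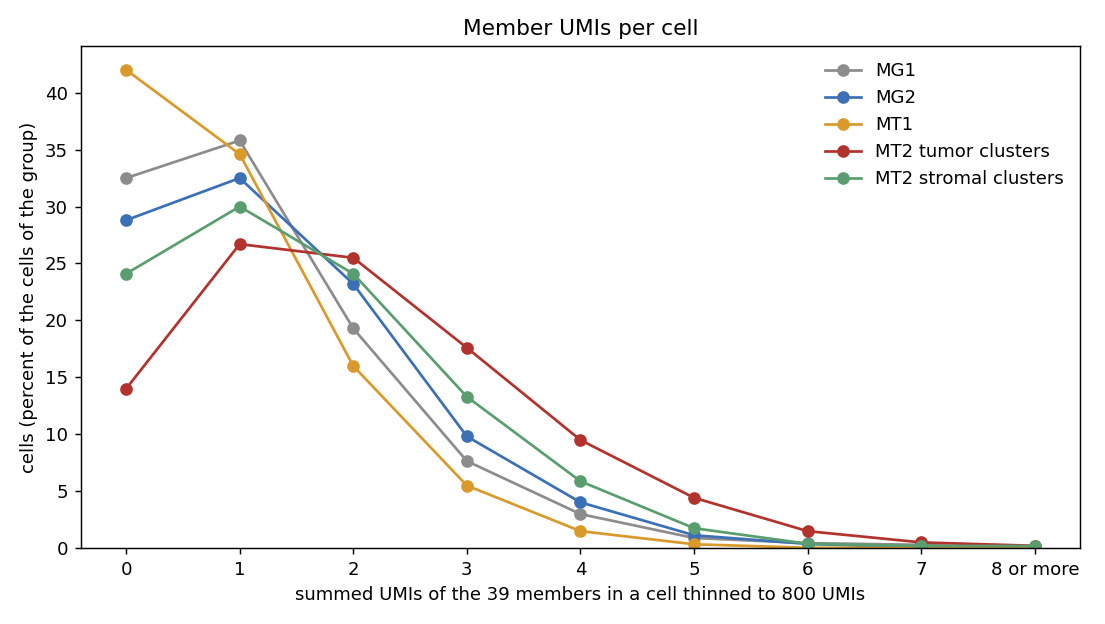
The x axis gives the summed UMIs of the 39 members in a cell thinned to 800 UMIs and the y axis the percent of cells of each group. MT2 tumor clusters form 1 broad peak at 1 and 2 UMIs (26.7 and 25.5% of cells) and have 14.0% of cells at 0, against 42.0% in MT1.

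Stromal cells of MT2 gave a second view of the same libraries. In 510 stromal cells, summed member UMIs averaged 1.56 per thinned cell, and 24.1% of cells had 0. Steap1 was at 74.9 unscaled CPM there, 33.4% of its level in the tumor clusters, Steap2 at 43.0%, Dbf4 at 35.3% and Cdk6 at 59.0%. Grem1, which leads a tumor cluster and is no member, stood at 49.4%, and Nalcn, another leading gene, at 31.4%. How much of this is free RNA from tumor cells was not tested. Steap1 was at 32.0, 140.0 and 60.1 unscaled CPM in the stroma of the 3 MT2 libraries, and at 7.38 in the stroma of MG2 (5 UMIs). Fzd1 was at 124 unscaled CPM in MT2 fibroblast-like cells and 91.2 in the tumor clusters, and Sri was at 183 in stroma and 206 in the tumor clusters.

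Partners of the members elsewhere in the genome were not used by the rule, so they were tested in MT2 against MG2, where 67.0% of all genes passed. The partner lists were chosen with earlier results of these data known, so they are not independent of the data. Of 47 partner genes tested in 6 lists, 34 rose and 9 fell. Among 9 partners of Cdk6, 8 rose and Rb1 fell (-1.78 ± 0.23, adjusted p = 1.89e-06). The risers included the sister kinase Cdk4 (1.40 ± 0.17, adjusted p = 9.76e-07) and the cyclin Ccnd2 (1.67 ± 0.20, adjusted p = 8.81e-07). All 4 kinase inhibitor genes rose too, such as Cdkn2a (3.21 ± 0.26, adjusted p = 5.43e-09) and Cdkn2c (4.27 ± 0.36, adjusted p = 9.1e-09). Counts per gene do not tell the transcripts of Cdkn2a apart, so a rise of its kinase inhibitor form is not shown. In MT1 against MG1, where 59.3% of all genes passed, 6 of the 9 rose and 2 fell, Rb1 (-2.47 ± 0.26) and Ccnd2 (-3.84 ± 0.33). All 4 Dbf4 partners, the kinase Cdc7 and its helicase substrates Mcm2, Mcm4 and Mcm6, rose in both tumors, Cdc7 by 1.29 ± 0.34 in MT2 (adjusted p = 0.00238).

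In MT2, 5 of 6 class 3 semaphorin receptors tested rose, led by Nrp2 (4.47 ± 0.19, adjusted p = 8.11e-13), Plxnd1 (3.61 ± 0.31) and Nrp1 (3.41 ± 0.26), while Plxna2 fell (-4.18 ± 0.50). In MT1 against MG1, 2 rose and 2 fell, among them Nrp1 (-1.39 ± 0.36). In the Hgf list, 0 rose and 4 fell of 5 tested in MT2. Of the same 5, 1 rose (Met), 1 fell (Spint1, -1.15 ± 0.23) and 3 did not pass in MT1 against MG1. The receptor Met was at 148 ± 15.4 CPM in MT2 and 119 ± 13.2 in MG2 (0.32 ± 0.23, adjusted p = 0.241) and at 2636 ± 146 in MT1 (4.19 ± 0.27 over MG1, adjusted p = 1.69e-09), where Hgf was lowest. The Hgf-activating proteases St14 (-8.35 ± 0.27) and Hpn (-5.15 ± 0.57) and their inhibitors Spint1 (-4.84 ± 0.24) and Spint2 (-9.13 ± 0.30) fell in MT2. St14, Spint1 and Spint2 are epithelial genes, and the epithelial markers were also low in the MT2 tumor clusters. Whether the 2 are linked was not tested.

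Of the 18 other genes of cholesterol synthesis, 14 rose in MT2, such as Hsd17b7 (2.10 ± 0.21, adjusted p = 6.59e-08) and Sqle (1.18 ± 0.24, adjusted p = 0.000239), and 3 fell, such as Fdft1 (-0.83 ± 0.16, adjusted p = 0.000181). In MT1 against MG1, 16 of the 18 rose and 0 fell (beside 59.3% of all genes that passed), with median log2 fold changes of 1.03 in MT2 and 1.04 in MT1, while Cyp51 itself had 0.19 ± 0.18 in MT1 (adjusted p = 0.361). The 2 genes of 18 that did not pass there were Lss and Tm7sf2, both with values under 0. Of 5 Krit1 partners, Heg1 (0.97 ± 0.19, adjusted p = 0.000213), Rap1a (1.5 ± 0.19, adjusted p = 1.86e-06) and Itgb1bp1 (2.01 ± 0.22, adjusted p = 1.85e-07) rose in MT2, and Ccm2 and Pdcd10 did not pass. In MT1 against MG1, 4 of the 5 rose and 0 fell: Ccm2 by 1.18 ± 0.22 (adjusted p = 0.000225), Pdcd10 by 0.66 ± 0.20 (adjusted p = 0.00769), Rap1a by 1.29 ± 0.20 (adjusted p = 2.63e-05) and Itgb1bp1 by 1.87 ± 0.34 (adjusted p = 0.000159), while Heg1 had -0.45 ± 0.22 (adjusted p = 0.0932).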

How the data were processed

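The authors processed the reads with Drop-seq tools and STAR against GRCm38.p6 and removed cells with extreme gene numbers or a high share of mitochondrial genes. Deposited is 1 table of UMI counts, not normalized, with 21743 genes in rows and 21157 cells in columns. Whether counting used strand is not given in the sources used here, so counts of overlapping genes are uncertain. Libraries came from the cell names, 0 columns stayed unassigned, and no 2 libraries of a group agreed within sampling noise.

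Members and gene lists were chosen with earlier results of these data known. Clusters came from scanpy 1.11.5 with leidenalg 0.10.2 (3000 variable genes, 30 components, 20 neighbours, resolution 0.6), leaving out all genes of chromosome 5 up to the end of the block, and named from marker lists with at least 3 markers raised. Doublets were kept, because a doublet caller marked only 54 (0.255% of cells) and its calls were not relied on, and leaving out the top 5% of doublet scores in each library was an alternative.

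Counts were summed per library over the 20037 cells outside stromal clusters (1120 cells left out). Tests used edgeR 4.0.16 under R 4.3.3 (filterByExpr, TMM, quasi-likelihood F test, 4 groups in 1 fit, Benjamini-Hochberg adjusted p over all genes tested). The SE was derived from the fold change on the log2 scale and its F statistic (size over root F). The scripts were tested on simulated data. Of the members, 33 passed the filter and 6 did not (Lrrd1, Mterf1a, Zfp804b, Rundc3b, Sema3d and Sema3a). A group at 0 UMIs was given a floor of 3 counts over the group, which covers counting error only. The depth was lowest in MG1, where 0 counts allow up to 1.01 CPM. Gene positions are from GENCODE (GRCm38). Named were members with 10 or more UMIs in MT2, the 5 genes past the block, the ABC genes and Cd36, partner genes, and the 10 genes most like the members. Members with fewer UMIs are accounted for as well, and Mterf1b, Cfap69, Grem1 and Nalcn were added after their values were seen. Some genes are not reported here. Alternatives were DESeq2 1.42.0, RLE size factors, no count filter, all cells, fewer doublets, other thresholds and pseudocounts, and leaving out each library.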

Additional observations from a re-analysis of the deposited data

Results flagged for a closer look

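In MT1, the group of 5 libraries, 35 member values were examined for a library far from the others (Dixon's criterion, critical value 0.710), and 2 passed, where chance flags about 1 in 20. Sema3a had its highest library at 0.874 CPM, with the next at 0.156, from 3 UMIs and 1 UMI. Sema3e had its lowest library at 0.392 CPM, with the next at 1.17.

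For 6 of the 33 members tested, every tumor library lay on one side of every gland library in mouse 1 and on the opposite side in mouse 2, a pattern that 10.7% of all genes tested showed. The difference between the mice was not tested, since the members were selected on MT2. Krit1 (107.7 CPM in MT2, 74.7 in MG2, 43.1 in MT1 and 62.4 in MG1), Fzd1 (94.99, 5.24, 1.35 and 5.78), Hgf (87.8, 13.4, 5.30 and 10.8), Sema3c (48.5, 39.6, 12.3 and 36.4) and Sema3e (6.80, 4.87, 1.12 and 2.32) were higher than gland in MT2 and lower than gland in MT1. Rbm48 (14.0, 23.5, 25.5 and 16.3) was lower in MT2 and higher in MT1.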

How the results depend on the processing

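Of 29 single member results past the threshold, 12 kept their direction and call under every alternative run, and 0 reversed. Cdk6, Dbf4, Steap1, Tmem60, Gsap, Akap9, Steap4, Sema3c and Pclo in MT1 against MG1 and Dbf4, Gtpbp10 and Fzd1 in cycling cells were these 12. Leaving out each library in turn gave 6 to 9 members higher and 6 to 10 lower in MT1 against MG1, 0 to 2 higher and 0 to 1 lower between the glands, 4 to 7 higher and 3 to 5 lower in cycling cells, and 32 to 37 partner genes higher and 7 to 9 lower. Where a lone library remained in a group, it was assumed to vary like the others. In MT2 over MG2 it gave 15 to 20 members at a log2 fold change of 1 or more (median 0.91 to 1.26, the highest without MG2 replicate 1), and over MT1 17 to 19 (median 1.22 to 1.45). No member at 1 or more changed sign, and Crot over MG2 and Gatad1 over MT1 fell under 1 in at least 1 alternative.

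Between the glands, DESeq2 called 0 members higher, all cells gave 2 higher and 2 lower, and leaving out gland cells in tumor clusters, an alternative chosen after seeing the data, gave 2 higher. In cycling cells, DESeq2 gave 3 higher and 3 lower, a threshold of 3 UMIs gave 7 higher and 3 lower, and the fit with no replicate block gave 2 higher and 1 lower. The cause was not tested. The block pairs the 2 classes of each library, since both come from the same library. Library numbers pair nothing across groups. The r between the first 20 and the other 19 members was 0.007, 0.037 and -0.016 in MT2 replicates 1, 2 and 3 alone, -0.005 to 0.027 leaving out each library and 0.034 with log-normalized values. From Cdk6 to Dmtf1 the median ratio was 1.41 to MG2 and 1.71 to MT1 with a pseudocount of 0.1 CPM, and 1.04 and 1.25 with 5 CPM. A member at 0 UMIs in MG1 may stand at up to 1.01 CPM there, and Steap1 had only 4 UMIs in MG1.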
